A study of Sus scrofa with 12 samples.

Results

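The genes described here build elastic fibres or cross-link their elastin, and they were followed in cultured porcine aortic valve interstitial cells (pAVICs), which resemble fibroblasts and maintain the matrix of the leaflet. Of 10 genes listed, 8 were found among the 22861 genes of the deposited table: ELN, LOX, LOXL1, FBN1, FBLN1, FBLN2, FBLN5 and EFEMP1. The gene table itself names 4 of them (LOX, FBLN5, FBN1 and EFEMP1), and the other 4 carry a blank name there and were matched through a table that pairs Ensembl pig gene IDs with symbols. No row was found for LOXL2 and MFAP4, which were not analysed here.

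Messenger RNA was sequenced in 12 libraries, 3 in each of 4 groups. Stage 1 cells were collected at day 5 and Stage 2 cells at day 8, and 2 further groups were given DMSO (Stage 3+DMSO) or KPT (Stage 3+KPT) once they had reached Stage 3. All groups were grown in DMEM on glass, the stimulus for calcification, and no genetic change is labelled in any group. KPT is named no further in the labels. No DMSO is labelled for Stage 1 or Stage 2, so comparisons of Stage 3+DMSO with them differ in both stage and solvent. Stage and solvent cannot be told apart there. The day of the Stage 3 libraries and the dose and duration of KPT were not given in the sources used here. Replicates are labelled as biological, but nothing says whether they came from separate animals, so p-values measure the spread between cultures.

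Elastic fibres give arteries and valve leaflets their recoil. Cells secrete tropoelastin, the product of ELN, onto a scaffold of fibrillin microfibrils, fibulins help to place and concentrate it there, and copper-dependent lysyl oxidases oxidise its lysines so that the chains become cross-linked. Lysyl oxidases also cross-link fibrillar collagens, and in the valve leaflet elastic fibres are concentrated on the side that faces the ventricle.

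Library totals recovered from the deposited values ran from 13188023 to 24724019, and each of the 8 genes drew 44 or more reads in every library. Summed over all genes, the recovered reads came to 23287593 to 43293744 per library, above the library total in each. The sources used here do not say how reads were counted, so the unit of these read numbers is not known. Levels are given as RPKM, reads scaled to exon length and library total. Comparisons between genes therefore depend on the deposited gene models and on that counting. Changes are differences of log2(RPKM + 1) from 1 limma fit of all 12 libraries over 13046 genes, and a change is called where the Benjamini-Hochberg adjusted p is under 0.05. All 9 fibroblast or interstitial cell markers examined were detected, with summed levels of 20308 to 21218 RPKM in Stage 1, 27628 to 28660 in Stage 2, 25902 to 28475 in Stage 3+DMSO and 14075 to 14891 in Stage 3+KPT. With KPT against DMSO 5 of the 9 were lower, 2 were higher and 2 were not called. Of all genes tested, 29.5% were called lower and 30.5% higher in that comparison. VIM (10719 to 4606 RPKM), COL1A2 (8569 to 3989) and COL3A1 (5605 to 4132) carry most of the sum and were lower, while DCN (366 to 465) and LUM (398 to 498) were higher and PDGFRA (65.1 and 66.9) was not called. Smooth muscle markers (5 of 6 found, all detected) summed to 28170 to 30012, 21642 to 25766, 14285 to 16138 and 7680 to 8839 RPKM in the same order. From Stage 1 to Stage 2, ACTA2 (18443 to 12678 RPKM) was lower, DES (45.5 to 126) was higher and 3 were not called. In that step 24.4% of all genes were called lower and 16.3% higher. From Stage 2 to Stage 3+DMSO all 5 were lower, beside 11.1% of all genes called lower and 33.0% higher. With KPT against DMSO 4 were lower and 1 was not called, with TAGLN at 5954 RPKM with DMSO and 6099 with KPT. Endothelial markers (7 of 8 found) summed to at most 83.7 RPKM, cardiomyocyte markers to at most 0.298, epithelial markers to at most 0.460 and erythroid markers to at most 1.03. Most of the endothelial sum was ERG, at a mean of 61.0 RPKM with DMSO and 26.6 with KPT. PECAM1 read 8.00 and 5.67 RPKM in those groups, and KDR 0.0406 and 0.00474. Leukocyte markers (6 of 6 found) summed to 237 to 308 RPKM over the 12 libraries, most of it CD79A, at a mean of 242 with DMSO and 271 with KPT, while the pan-leukocyte marker PTPRC was at 0 and 0.00959 RPKM in those groups. In bulk RNA, fewer cells of a type and less RNA per cell cannot be told apart, and the part of these marker shifts in the results below was not tested.

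ELN, the gene of the elastic core itself, rose from Stage 1 to Stage 2 and again to Stage 3+DMSO. With KPT it was lower than in any other group. Its RPKM was 7.98, 8.80 and 8.14 in Stage 1, 37.4, 47.1 and 35.9 in Stage 2, 95.3, 95.4 and 60.7 in Stage 3+DMSO, and 4.20, 5.39 and 4.09 in Stage 3+KPT. No 2 groups overlapped, and every KPT library lay below every Stage 1 library. The Stage 3+DMSO mean of 83.8 ± 20.0 (SD, n = 3) was 10.1 times the Stage 1 mean of 8.31 ± 0.438, a log2 change of 3.16 (SE 0.16, limma adjusted p = 3.03e-08). The rise came in both steps, with 2.14 from Stage 1 to Stage 2 (adjusted p = 2.29e-06) and 1.02 from Stage 2 to Stage 3+DMSO (adjusted p = 0.00032). With KPT the mean was 4.56 ± 0.721, 18.4-fold below Stage 3+DMSO, a log2 change of -3.91 (SE 0.16, adjusted p = 7.65e-10). Stage 3+KPT was also below Stage 1, by a log2 change of -0.75 (adjusted p = 0.00131). The deposited ELN model is short: 11 exons with 1464 bases of exon on the minus strand of chromosome 3 from 10929442 to 10935871, in a genome build that is not stated in the sources at hand. It drew 86 to 2813 reads per library, so the ELN level refers to that stretch.

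**Figure D1:**
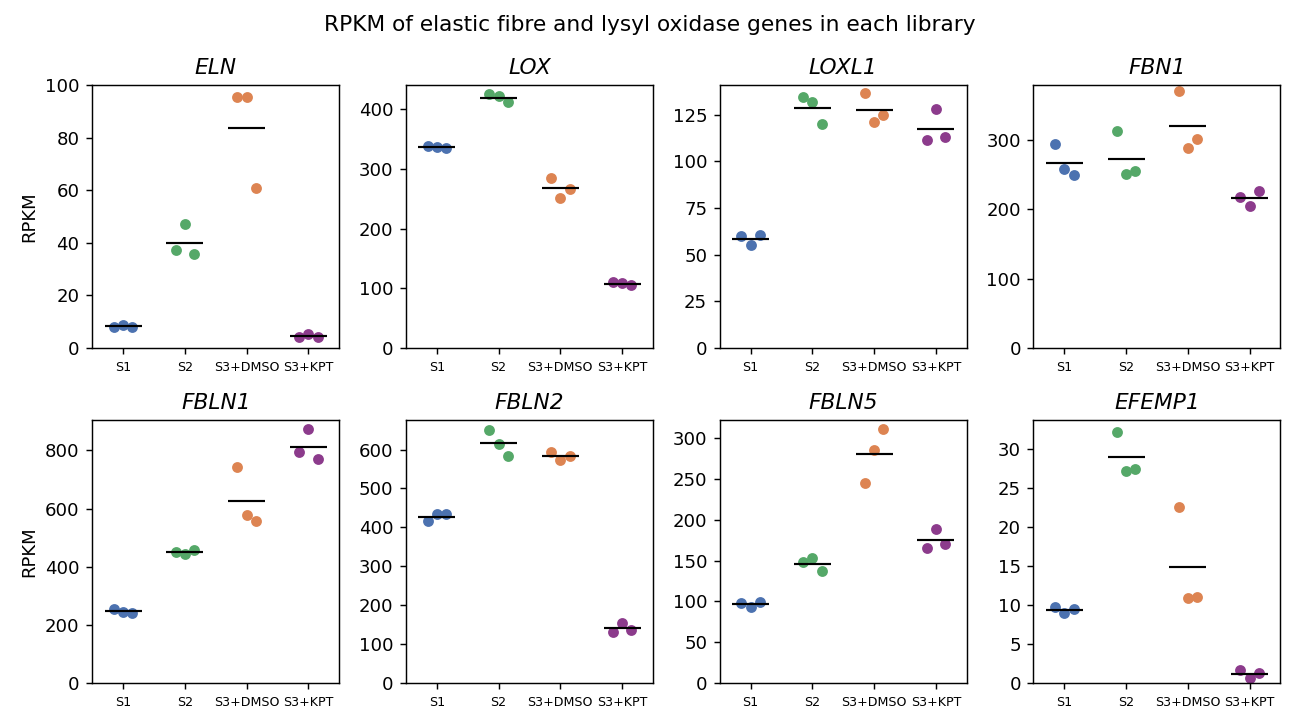
RPKM (linear axis from 0, scaled per gene) of the 8 elastic fibre genes in each of the 12 libraries, with points for libraries, a line for each group mean, and S1, S2, S3+DMSO and S3+KPT for the 4 groups. ELN climbs from 8.31 to 83.8 RPKM over the stages and lies at 4.56 with KPT, while FBLN1 has its highest mean, 814 RPKM, with KPT.

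The lysyl oxidases LOX and LOXL1, both able to oxidise tropoelastin, had unlike courses. LOX was at 339, 336 and 335 RPKM in Stage 1, 424, 422 and 411 in Stage 2, 284, 252 and 266 in Stage 3+DMSO, and 110.2, 108 and 105 in Stage 3+KPT. The 4 groups did not overlap, with Stage 2 highest and KPT lowest. LOX rose by 0.32 on the log2 scale into Stage 2 (limma adjusted p = 0.000518) and changed by -0.65 from Stage 2 to Stage 3+DMSO (adjusted p = 1.73e-06), which left it below Stage 1 by -0.33 (adjusted p = 0.000226). KPT libraries were lower again, by -1.30 against Stage 3+DMSO (SE 0.05, adjusted p = 5.84e-10), or 2.48-fold. LOX lies on chromosome 2, from 130891092 to 130900428 on the minus strand, with 7 exons.

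LOXL1, the lysyl oxidase known for its part in renewing elastic fibres in adult tissue, stood at 60.3, 55.2 and 60.3 RPKM in Stage 1. It read 134, 132 and 119.9 in Stage 2, 137, 121 and 125 in Stage 3+DMSO, and 111, 128 and 113 in Stage 3+KPT. Stage 1 lay apart, and the other 3 groups overlapped. The rise from Stage 1 to Stage 2 was 1.12 (SE 0.07, limma adjusted p = 8.76e-07), or 2.20-fold. Neither later difference was called: Stage 3+DMSO differed from Stage 2 by -0.01 (95% interval -0.17 to 0.15, adjusted p = 0.904) and KPT differed from Stage 3+DMSO by -0.12 (95% interval -0.28 to 0.04, adjusted p = 0.185). LOXL1 lies on chromosome 7, from 64102994 to 64126775 on the minus strand.

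The mix of lysyl oxidase transcripts differed between the groups. LOX, LOXL1, LOXL3 and LOXL4 together amounted to 567 ± 7.54 RPKM in Stage 1, 670 ± 21.6 in Stage 2, 474 ± 22.3 in Stage 3+DMSO and 299 ± 10.9 in Stage 3+KPT (SD, n = 3). LOX made up 59.4%, 62.6%, 56.4% and 36.1% of that sum in the same order. LOXL1 made up 10.3%, 19.2%, 26.9% and 39.2%. The ratio of LOX to LOXL1 was 5.76 ± 0.297 in Stage 1, 3.26 ± 0.142 in Stage 2, 2.10 ± 0.0346 in Stage 3+DMSO and 0.923 ± 0.0724 in Stage 3+KPT. No 2 groups overlapped in this ratio, and in each of the 3 KPT libraries LOXL1 exceeded LOX, at 0.991, 0.847 and 0.930. LOXL4, a lysyl oxidase with scavenger receptor domains, had a share of 16.5% in Stage 1 and 6.64%, 4.68% and 4.10% in the later groups. LOXL2 is missing from these sums.

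**Figure D2:**
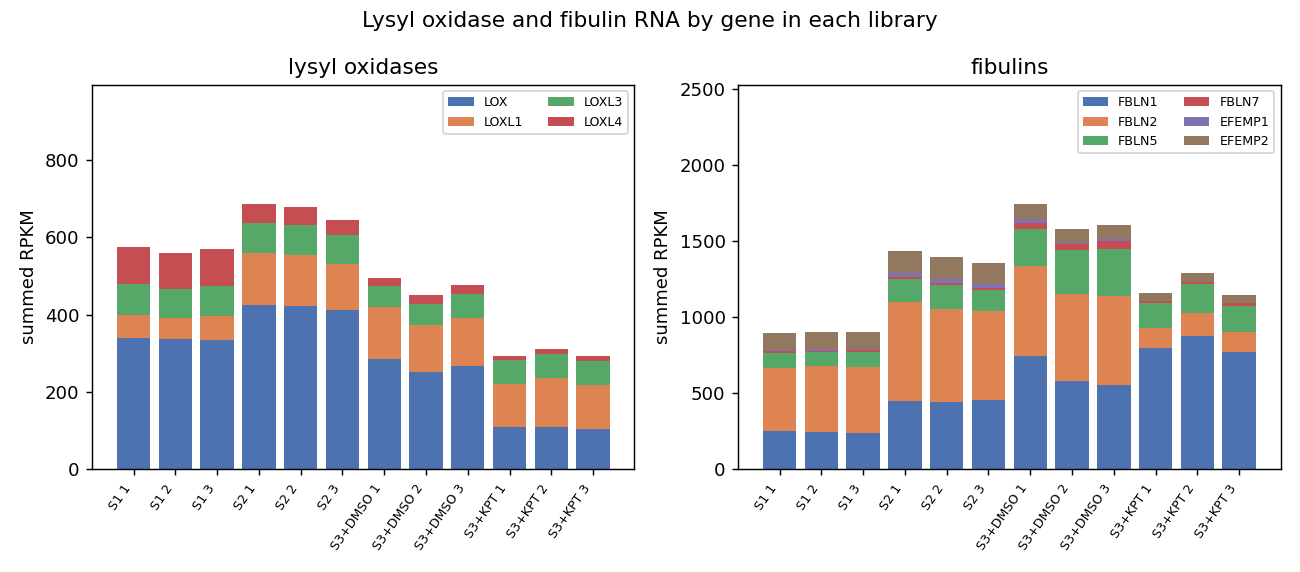
Summed RPKM of 4 lysyl oxidases (left) and 6 fibulins (right), stacked by gene, with 1 bar for each of the 12 libraries. The LOXL1 segment makes up 10.3% of the lysyl oxidase bar in Stage 1 and 39.2% with KPT, and the FBLN1 segment makes up 27.3% and 67.9% of the fibulin bar (group means).

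FBN1, which encodes fibrillin-1, the main protein of the microfibril scaffold, moved least of the 8 genes, with no difference between successive groups beyond 0.56 on the log2 scale. Its RPKM was 294, 257 and 249 in Stage 1, 312, 250.2 and 254 in Stage 2, 371, 289 and 301 in Stage 3+DMSO, and 218, 205 and 226 in Stage 3+KPT. The 3 groups without KPT overlapped, and every KPT library was below all 9 others. From Stage 1 to Stage 2 the difference was 0.03 (95% interval -0.20 to 0.26, limma adjusted p = 0.861), and Stage 3+DMSO differed from Stage 2 by 0.23 (adjusted p = 0.0977) and from Stage 1 by 0.26 (adjusted p = 0.0632). Those Stage 3+DMSO differences were called when 1 library was left out: against Stage 2 without Stage 2 replicate 1 (0.33, adjusted p = 0.0227), and against Stage 1 without Stage 1 replicate 1 (0.33, adjusted p = 0.0401) or without Stage 3+DMSO replicate 2 (0.33, adjusted p = 0.0398). KPT was lower than Stage 3+DMSO by a log2 change of -0.56 (SE 0.11, adjusted p = 0.00062). FBN1 lies on chromosome 1, from 137103320 to 137303566 on the plus strand, with 71 exons. With the wider range of ELN, the ratio of FBN1 to ELN was 32.2 ± 4.04 in Stage 1, 6.92 ± 1.52 in Stage 2, 3.96 ± 0.968 in Stage 3+DMSO and 48.4 ± 9.16 in Stage 3+KPT. Both genes are on the per-length scale in that ratio, and the KPT libraries, at 38.0 to 55.3, lay above the Stage 1 libraries, at 29.2 to 36.8.

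Among the fibulins, FBLN5, whose protein binds tropoelastin and is needed for elastic fibres to form, rose at both steps. It read 98.3, 93.4 and 99.8 RPKM in Stage 1, 148, 154 and 138 in Stage 2, 246, 286 and 312 in Stage 3+DMSO, and 166, 189 and 170.1 in Stage 3+KPT. The 4 groups were separate, with KPT between Stage 2 and Stage 3+DMSO. The log2 change was 0.59 into Stage 2 (limma adjusted p = 0.000185), 0.93 from Stage 2 to Stage 3+DMSO (adjusted p = 4.03e-06) and -0.68 with KPT against DMSO (SE 0.08, adjusted p = 1.8e-05). FBLN5 lies on chromosome 7, from 120031685 to 120114530 on the minus strand.

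EFEMP1, which encodes fibulin-3, peaked in Stage 2 and had the lowest group mean of the 8 genes in every group but Stage 1. Its RPKM was 9.71, 8.91 and 9.51 in Stage 1, 32.2, 27.1 and 27.5 in Stage 2, 22.6, 10.9 and 11.0 in Stage 3+DMSO, and 1.63, 0.646 and 1.24 in Stage 3+KPT. Stage 2 was highest and KPT lowest with no overlap, and in Stage 3+DMSO replicate 1 stood well above the other 2 libraries. EFEMP1 rose by 1.53 into Stage 2 (SE 0.23, limma adjusted p = 0.000283) and changed by -0.99 to Stage 3+DMSO (adjusted p = 0.00432). Against Stage 1, Stage 3+DMSO differed by 0.53 (adjusted p = 0.0773), a difference that was called without Stage 3+DMSO replicate 2 (0.70, adjusted p = 0.042) or replicate 3 (0.69, adjusted p = 0.0431). KPT was 12.7-fold below Stage 3+DMSO, at -2.82 (SE 0.23, adjusted p = 4.24e-07). EFEMP1 lies on chromosome 3, from 90132132 to 90197713 on the plus strand, and drew 44 to 1671 reads per library. Exon 11 holds 1609 of the 3070 exon bases of the deposited model and read 9.71 RPKM in Stage 2. Exons 1 to 10 read 29.7 to 79.7 RPKM there, so the gene level and its rank depend on that model.

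FBLN1 and FBLN2, which encode fibulins of elastic fibres and basement membranes, parted under KPT. FBLN2 had the highest group mean of the 8 genes in Stage 1 and Stage 2, and FBLN1 in both Stage 3 groups. FBLN2 was at 415, 433 and 434 RPKM in Stage 1, 651, 614 and 584 in Stage 2, 595, 574 and 582 in Stage 3+DMSO, and 131, 154 and 136 in Stage 3+KPT. Stage 2 and Stage 3+DMSO overlapped, Stage 1 lay below both and KPT below all. FBLN2 rose by 0.53 into Stage 2 (limma adjusted p = 5.94e-05), differed by -0.08 between Stage 2 and Stage 3+DMSO (95% interval -0.22 to 0.06, adjusted p = 0.36), and was 4.17-fold lower with KPT than with DMSO, at -2.05 (SE 0.06, adjusted p = 8.06e-11). After rescaling of the libraries by their median ratio, the difference between Stage 2 and Stage 3+DMSO was called lower (-0.24, adjusted p = 0.0144).

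FBLN1 was the gene of the 8 that rose with KPT. Its RPKM was 254, 244 and 239 in Stage 1, 450.0, 443 and 458 in Stage 2, 743, 579.5 and 558 in Stage 3+DMSO, and 796, 874 and 771 in Stage 3+KPT. Each group lay above the one before it without overlap. The changes were 0.87 into Stage 2 (limma adjusted p = 1.9e-05), 0.47 from Stage 2 to Stage 3+DMSO (adjusted p = 0.00138) and 0.39 with KPT against DMSO (SE 0.09, adjusted p = 0.00286), the last being 1.30-fold. Within the 6 fibulin genes FBLN1, FBLN2, FBLN5, FBLN7, EFEMP1 and EFEMP2, FBLN1 supplied 27.3% of the summed RPKM in Stage 1, 32.2% in Stage 2, 38.0% in Stage 3+DMSO and 67.9% in Stage 3+KPT. FBLN2 supplied 47.5%, 44.1%, 35.6% and 11.7%. The sum itself was 900.2 ± 4.74, 1397 ± 38.0, 1643 ± 88.1 and 1198 ± 80.9 RPKM. FBLN1 lies on chromosome 5, from 1071720 to 1158793, and FBLN2 on chromosome 13, from 78256434 to 78359474, both on the minus strand.

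Counted over the 8 genes, the step from Stage 1 to Stage 2 went 1 way: 7 rose, and the eighth, FBN1, did not pass. Over all genes tested in that comparison 16.3% were called higher and 24.4% lower, and 40.7% were called in either direction. The libraries of the 2 groups did not overlap for 7 of the 8 genes and for 52.5% of all genes. The median log2 change was 0.73 over the 8 genes and -0.05 over all genes tested. From Stage 2 to Stage 3+DMSO, ELN, FBLN1 and FBLN5 rose, LOX and EFEMP1 fell, and the other 3 did not pass, beside 33.0% of all genes called higher, 11.1% lower and 44.1% in either direction. Groups were apart for 5 of the 8 genes and 51.1% of all. The median over the 8 genes, 0.11, was near that of all genes, 0.15. Median-ratio rescaling moved the median of all genes by -0.15 here and the share of calls that were higher from 74.9% to 50.5%. Across both steps, from Stage 1 to Stage 3+DMSO, 5 genes rose (ELN, FBLN5, FBLN1, LOXL1 and FBLN2) and LOX fell, beside 30.5% higher, 17.3% lower and 47.7% either way over all genes. Here 7 of the 8 did not overlap, as against 59.0% of all genes. That rescaling moved the median of all genes by -0.10 and the share of calls that were higher from 63.8% to 47.9% in this comparison.

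With KPT against DMSO at Stage 3, 6 of the 8 genes fell, FBLN1 rose and LOXL1 did not pass, while 29.5% of all genes were called lower, 30.5% higher and 60.0% in either direction. Libraries did not overlap for 7 of the 8 genes and 65.2% of all genes. The median log2 change was -0.99 over the 8 genes and 0.02 over all genes. In order of size the falls were ELN, EFEMP1, FBLN2, LOX, FBLN5 and FBN1, from -3.91 to -0.56. The median log2 ratio of last to first exon over 8762 genes, a measure that can move with RNA integrity, was 0.487 to 0.546 in the KPT libraries and 0.346 to 0.376 in the Stage 3+DMSO libraries, and its part in these falls was not tested.

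**Figure D3:**
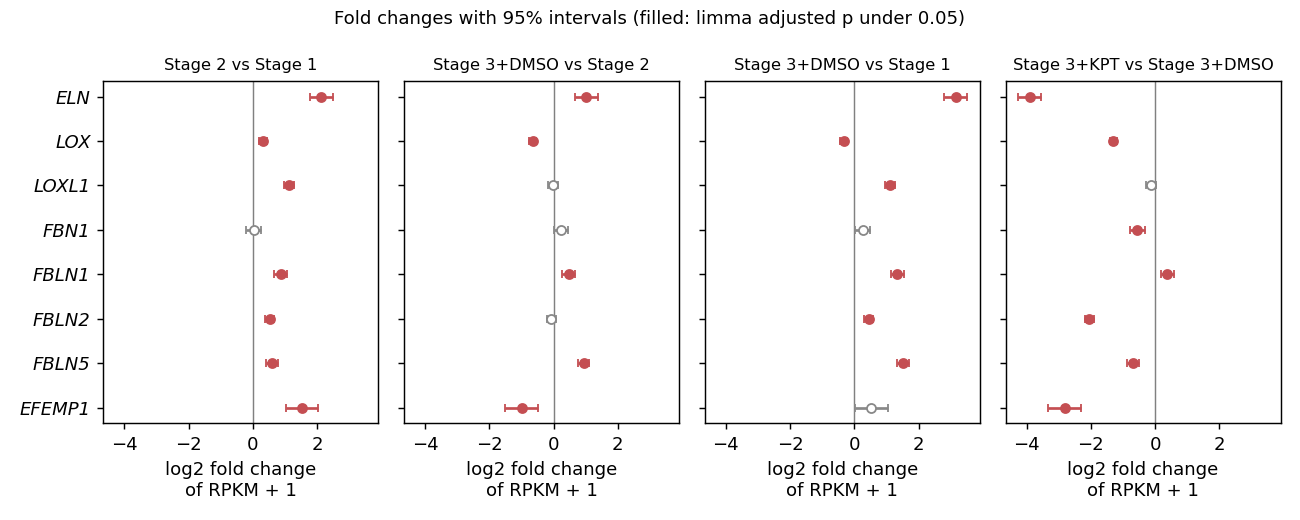
Log2 fold change of log2(RPKM + 1) with its 95% interval for each of the 8 genes in 4 comparisons between groups, from the limma fit of 12 libraries. In the step from Stage 1 to Stage 2 the interval of FBN1 spans 0 and the other 7 lie above it, and with KPT against DMSO the order runs from FBLN1 at 0.39 to ELN at -3.91.

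Stage 3+KPT was also set against the earlier stages, comparisons that differ in both stage and treatment and share the KPT libraries with the one above. Against Stage 1, FBLN1 (1.72), LOXL1 (0.99) and FBLN5 (0.84) were higher, and EFEMP1 (-2.28), LOX (-1.63), FBLN2 (-1.61), ELN (-0.75) and FBN1 (-0.30) were lower, beside 39.4% of all genes called higher, 27.4% lower and 66.8% either way. All 8 genes were without overlap, beside 73.4% of all genes. The FBN1 call (limma adjusted p = 0.0255) was lost without Stage 1 replicate 1 (0.109), Stage 3+KPT replicate 1 (0.0515) or Stage 3+KPT replicate 2 (0.083). Against Stage 2, FBLN1 (0.85) and FBLN5 (0.26) were higher and EFEMP1 (-3.81), ELN (-2.89), FBLN2 (-2.13), LOX (-1.95) and FBN1 (-0.33) were lower, beside 42.5% higher, 24.9% lower and 67.5% either way over all genes, with 7 of the 8 and 70.1% of all genes without overlap. LOXL1 differed from Stage 2 by -0.13 (95% interval -0.29 to 0.03, adjusted p = 0.133). Thus LOX, FBLN2, EFEMP1 and ELN lay below their Stage 1 level with KPT, whereas LOXL1, FBLN1 and FBLN5 lay above theirs.

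Calls close to the threshold depended on the scaling in the comparison with Stage 2. After median-ratio rescaling LOXL1 was called lower (-0.31, limma adjusted p = 0.00339) and FBLN5 was no longer called (0.07, adjusted p = 0.467). Quantile normalization gave the same calls, with -0.25 (adjusted p = 0.0111) for LOXL1 and 0.14 (adjusted p = 0.17) for FBLN5. The FBLN5 call was also lost without Stage 2 replicate 3 (adjusted p = 0.0652) or Stage 3+KPT replicate 2 (0.0746), the FBN1 call without Stage 2 replicate 1 (0.0771) or Stage 3+KPT replicate 2 (0.0581), and LOXL1 was called without Stage 3+KPT replicate 2 (-0.19, 0.0413). Rescaling moved the median of all genes by -0.16 against Stage 2 and by -0.12 against Stage 1. The share of calls that were higher went from 63.0% to 50.2% against Stage 2 and from 59.0% to 49.8% against Stage 1.

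Genes were ranked by how near their values lay to those of ELN, among 10778 other tested genes with a symbol. The measure was the mean absolute difference between centred log2(RPKM + 1) values over the 12 libraries. It is not scaled for the size of change, so a rank reflects size as well as direction. Nearest was MFAP2, which encodes the microfibril-associated protein MAGP-1, at a mean difference of 0.245. MFAP2 read 15.4 ± 2.13 RPKM in Stage 1, 59.2 ± 6.30 in Stage 2, 99.3 ± 8.96 in Stage 3+DMSO and 9.50 ± 0.952 in Stage 3+KPT. Then came NREP at 0.313, TNFSF18, a cytokine of the tumour necrosis factor family, at 0.428, LMCD1, a LIM domain protein, at 0.473, and SPARCL1, a matricellular glycoprotein, at 0.475. NREP read 5.66 ± 0.588, 16.9 ± 3.44, 38.0 ± 2.93 and 2.10 ± 0.256 RPKM in the same order of groups. TNFSF18 stayed low, with a highest group mean of 5.90 ± 1.54 RPKM in Stage 3+DMSO, and SPARCL1 read 40.4 ± 6.13 in Stage 2 and 37.5 ± 12.0 in Stage 3+DMSO, a difference that was not called (limma adjusted p = 0.558). Of the genes described above, FBLN2 ranked 68, EFEMP1 81, LOX 389, FBLN5 679, LOXL1 707, FBN1 2056 and FBLN1, the farthest of them, 2411. The libraries of a group share their stage and treatment, so the ranking describes 4 conditions with 3 libraries each.

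**Figure D4:**
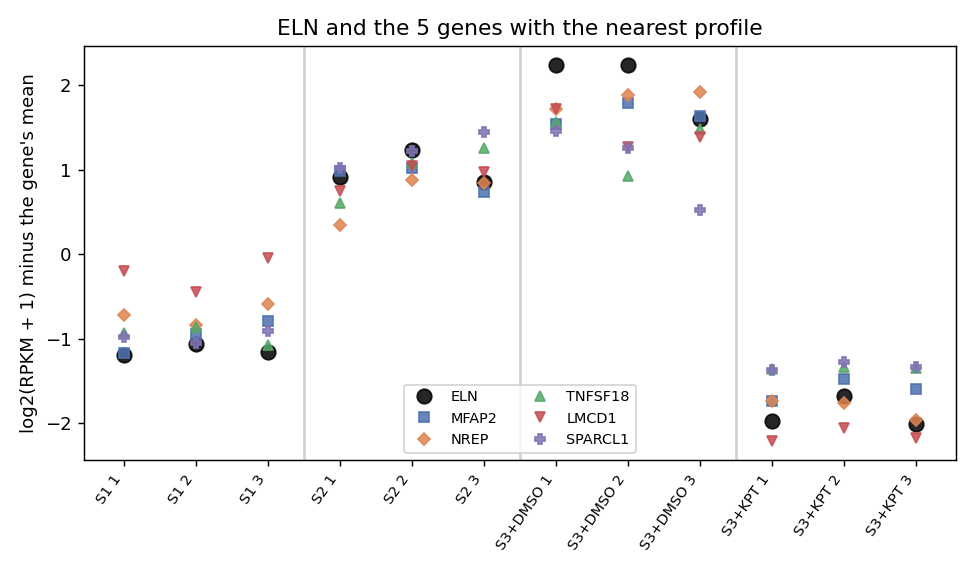
Log2(RPKM + 1), centred on each gene's mean over the 12 libraries, for ELN and the 5 genes nearest to it, with 1 symbol per gene in each library (S1, S2, S3+DMSO and S3+KPT are the 4 groups). The symbols of ELN and MFAP2 lie close together in Stage 1 and Stage 2, and their mean difference over all libraries is 0.245.

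Exon values showed how far the exons of each gene moved alike. All 11 ELN exons were higher in Stage 2 than in Stage 1, by log2 changes of 1.75 to 3.05, and all 11 were lower with KPT than with DMSO, by -5.56 to -3.34. All 17 FBLN1 exons were higher in each comparison between successive groups, including KPT against DMSO, where they ranged from 0.15 to 0.48. For LOX, the 6 exons with a mean of at least 1 RPKM were all lower with KPT, from -1.38 to -1.16, and for FBN1 54 of 55 such exons were lower. Other comparisons were mixed. Of 15 such FBLN2 exons, 12 were higher and 3 lower in Stage 2 than in Stage 1, and the same numbers held for Stage 3+DMSO against Stage 1. In both, the lower ones were the weakly covered exons 10, 12 and 14, at Stage 1 means of 6.11, 5.88 and 15.4 RPKM. All 11 FBLN2 exons above 100 RPKM were higher. FBN1 had 35 exons higher and 20 lower from Stage 1 to Stage 2, and LOXL1 had 3 higher and 4 lower from Stage 2 to Stage 3+DMSO, comparisons in which these genes were not called.

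A test of relative exon use (limma diffSplice) was made for 133 of the 161 exons of the 8 genes. It called 0 of them between Stage 1 and Stage 2 (4 at an unadjusted p under 0.05, and 0 by limma-voom on recovered reads), beside 0.413% of all exons. It also called 0 between Stage 2 and Stage 3+DMSO (2 unadjusted, and 0 by limma-voom), beside 0.436%. From Stage 1 to Stage 3+DMSO 1 exon was called, beside 0.424%: exon 14 of FBLN2 (chromosome 13, 78323888 to 78323974), which changed by -2.66 relative to the other exons (adjusted p = 1.85e-05). Its RPKM was 18.3, 4.08 and 23.8 in Stage 1 and 13.3, 0 and 0 in Stage 3+DMSO, so the groups overlapped and the exon was little used in a gene whose level was above 400 RPKM in both. With KPT against DMSO exon 33 of FBN1 (chromosome 1, 137235110 to 137235235) was the 1 exon called, beside 0.962% of all exons. It was at 243, 162 and 182 RPKM with DMSO and 193, 162 and 235 with KPT, so that it did not share the fall of its gene, a relative difference of 0.55 (adjusted p = 0.0273). That call was lost after median-ratio rescaling (adjusted p = 0.05). It was also lost without replicate 2 (0.199) or 3 (0.126) of Stage 3+DMSO and without replicate 1 (0.108) or 3 (0.413) of Stage 3+KPT.

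The FBLN2 exons were at uneven levels. Of the 26 listed exons 11 were above 100 RPKM and 14 below 25. Exon 17, 186 bases long (chromosome 13, 78270006 to 78270191), was at 8.86% ± 0.928 of the mean of exons 16 and 18 in Stage 1, 9.29% ± 2.01 in Stage 2, 7.27% ± 1.04 in Stage 3+DMSO and 14.1% ± 2.31 in Stage 3+KPT (SD, n = 3). The KPT libraries, at 11.7% to 16.3%, lay above all others, the highest of which was 10.5%. The exon test did not call this difference (0.74 relative to the other exons, limma diffSplice adjusted p = 0.838). FBLN2 is known to be spliced in alternative forms, and which exon of those forms this one is was not examined.

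**Figure D5:**
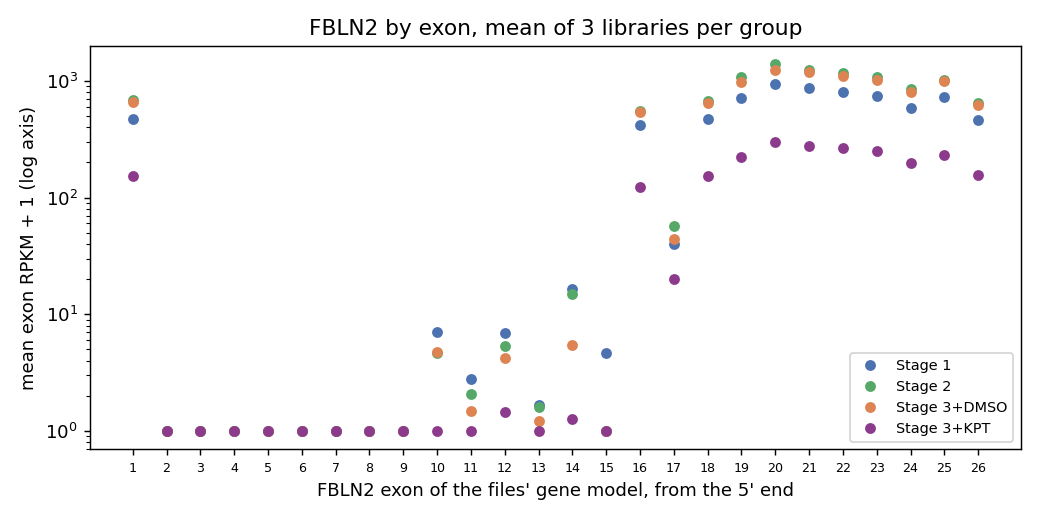
Mean exon RPKM + 1 (log axis) of the 26 FBLN2 exons, numbered from the 5′ end, with 1 point per group of 3 libraries. The KPT points lie below the others at exons 1 and 16 to 26, and exon 17 is low in all 4 groups, at 8.86%, 9.29%, 7.27% and 14.1% of the mean of its neighbours.

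A wider list of 48 genes of elastic fibre biology was counted beside the 8, and 44 of its genes were found and 38 tested. From Stage 1 to Stage 2, 18 of the 38 rose and 4 fell, with a median log2 change of 0.28. Of all genes 16.3% were called higher and 24.4% lower (median -0.05). From Stage 2 to Stage 3+DMSO 14 of 38 rose and 11 fell (median 0.12), beside 33.0% and 11.1% of all genes (median 0.15). From Stage 1 to Stage 3+DMSO 20 rose and 7 fell (median 0.32), beside 30.5% and 17.3% (median 0.10). With KPT against DMSO 8 rose and 24 fell (median -0.59), beside 30.5% and 29.5% (median 0.02). Against Stage 1, KPT libraries had 14 of 38 genes higher and 18 lower (median -0.10), beside 39.4% and 27.4% (median 0.13). Against Stage 2 they had 11 of 38 higher and 21 lower (median -0.34), beside 42.5% and 24.9% (median 0.18).

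With KPT against DMSO 29.5% of all genes were called lower and 30.5% higher. Microfibril components and latent TGF-beta binding proteins fell with KPT in 5 of the 6 genes tested. MFAP2 had the largest fall, -3.26 (SE 0.11, limma adjusted p = 1.67e-10), from 99.3 ± 8.96 to 9.50 ± 0.952 RPKM. LTBP1, which holds latent TGF-beta in the matrix, was the gene that rose, from 206 ± 3.70 to 542 ± 3.90 RPKM, a log2 change of 1.39 (adjusted p = 3.34e-10). Of the further fibulins, lysyl oxidases and emilins 5 of 6 fell, among them EMILIN1, an elastin-associated glycoprotein, by -1.94 from 246 ± 26.8 to 63.4 ± 4.49 RPKM (adjusted p = 6.7e-10). LOXL3 did not pass, at 56.8 ± 4.36 with DMSO and 61.5 ± 1.06 with KPT.

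In the earlier steps these 6 genes were mixed, with 2 rising and 2 falling into Stage 2 and 1 rising and 5 falling from Stage 2 to Stage 3+DMSO. Over all genes 16.3% were called higher and 24.4% lower in the first step. In the second, 33.0% were called higher and 11.1% lower. LOXL4 fell from 93.3 ± 1.35 RPKM in Stage 1 to 44.5 ± 4.47 in Stage 2 (-1.06, limma adjusted p = 6.89e-06) and to 22.1 ± 2.82 in Stage 3+DMSO (-0.98, adjusted p = 8.4e-06). FBLN7, a short fibulin, rose from 14.2 ± 1.11 in Stage 2 to 42.9 ± 5.25 in Stage 3+DMSO (1.52, adjusted p = 2.47e-07). EMILIN2 was lower in Stage 3+DMSO than in Stage 1, at 74.8 ± 3.63 against 117 ± 2.60 (-0.64, adjusted p = 1.87e-05).

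Genes of processing and assembly, which include procollagen and pro-lysyl oxidase proteases and their enhancers, fell with KPT in 8 of the 10 tested. Of all genes 29.5% were called lower and 30.5% higher in that comparison. PCOLCE, an enhancer of procollagen C-proteinase, went from 431 ± 70.0 RPKM with DMSO to 151 ± 16.7 with KPT (-1.51, limma adjusted p = 8.67e-08). ADAMTS10, a secreted protease-like protein of microfibrils, went from 24.4 ± 1.40 to 5.71 ± 0.112 (-1.92, adjusted p = 6.7e-10). THSD4, which encodes a microfibril-promoting ADAMTS-like protein, rose from 0.589 ± 0.264 in Stage 2 to 4.36 ± 1.33 in Stage 3+DMSO (1.73, adjusted p = 1.6e-05). It was also the gene of these 10 that rose with KPT, to 10.1 ± 0.621 RPKM (1.08, adjusted p = 0.000259).

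Of 5 elastase genes tested, 3 rose with KPT and 1 fell, beside 30.5% of all genes called higher and 29.5% lower. CTSK, cathepsin K, a lysosomal protease that cuts collagen and elastin, rose from 2401 ± 433 RPKM with DMSO to 11020 ± 865 with KPT (2.21, SE 0.11, limma adjusted p = 2.77e-09). MMP2, a gelatinase that also cuts elastin, rose from 940.3 ± 29.9 in Stage 1 to 1643 ± 35.4 in Stage 2 (0.80, adjusted p = 4.25e-06) and by 0.40 with KPT (adjusted p = 0.000269). Both tested genes of the elastin receptor complex rose with KPT. CTSA, its protective cathepsin A subunit, went from 530.5 ± 55.9 to 821 ± 41.5 RPKM (0.63, adjusted p = 1.99e-05), and NEU1, its neuraminidase, from 27.4 ± 3.45 to 54.8 ± 4.21 (0.98, adjusted p = 1.03e-06).

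Among partners, which bind elastic fibres or TGF-beta, 1 of 9 rose with KPT and 5 fell. Over all genes 30.5% were called higher and 29.5% lower. ITGB5, an integrin subunit, rose from 439 ± 111 to 1225 ± 51.7 RPKM (1.51, limma adjusted p = 1.4e-06), and TGFB3, a TGF-beta ligand, fell from 146 ± 19.4 to 31.6 ± 1.55 (-2.16, adjusted p = 3.37e-10). VCAN, which encodes versican, a proteoglycan, fell from 135 ± 7.90 in Stage 2 to 88.9 ± 10.2 in Stage 3+DMSO (-0.60, adjusted p = 0.000362). LTBP1, EMILIN1, LOXL3, PCOLCE, CTSA and NEU1 are named here after their values were seen.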

How the data were processed

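Messenger RNA of 12 cultures was sequenced from 500 ng of RNA each with a stranded kit, per the labels' protocols, and TopHat2 2.1.0 aligned the reads, per the submitters' processing notes. Which counter, genome build and annotation were used was not given in the sources used here. Genes and exons come as RPKM values that the authors deposited. Multiplied by union exon length and library total, 100% of gene and exon values came out whole within 0.001 of a read, which gave the depth and an added limma-voom fit. Summed over genes these reads exceed the library total, for a reason that is not stated. No source says that counting used strand, so overlapping genes may have shared reads.

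Values of log2(RPKM + 1) were tested with limma 3.58.1 (R 4.3.3), a scale that understates the change of low genes, with an expression trend and all 12 libraries in 1 fit. Genes and exons with RPKM of at least 1 in at least 3 libraries were tested, and relative exon use with diffSplice. The fit was checked on simulated data. Fold multiples are ratios of mean RPKM.

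The genes, lists and tests were chosen with earlier results of these data known. All 8 genes found are named, then up to 2 called list genes per direction with the largest changes and the 5 genes nearest ELN, and some of these are left out for length. Alternatives were other pseudocounts, filters and scalings, no trend, the 2 groups alone, leaving out each library and a replicate block. Limma-voom and leaving out replicate 1 of every group were added after seeing the data.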

Additional observations from a re-analysis of the deposited data

How the results depend on the processing

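Of 816 alternative values of the gene fold changes, 793 kept their side of the threshold, 9 lost a call and 14 gained one. With a call in either fit, 0 reversed direction. A change of sign without a call in either fit was counted among the 793. The number of the 8 genes called changed by less than 1.5 times under every alternative run. Exon calls rest on few exons and varied more. From Stage 1 to Stage 2 the count of exons was 0, and 0 to 1 with libraries left out. From Stage 2 to Stage 3+DMSO it was 0, 1 with the replicate block and 0 to 1 with libraries left out. From Stage 1 to Stage 3+DMSO it was 1, 2 with a pseudocount of 0.1 and 1 to 2 with libraries left out. With KPT against DMSO it was 1, and became 3 with a pseudocount of 0.1, 0 after median-ratio rescaling, 4 with the replicate block, 2 with limma-voom and 0 to 4 with libraries left out. The cause of these shifts was not tested.

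No source says that equal replicate numbers pair the cultures. Over 18 same-numbered pairs of libraries the correlation of deviations ran from -0.131 to 0.0748, and 5 of 12 libraries correlated best with their own number. Deviations were centred within each small group, which constrains these correlations, so they cannot decide whether same-numbered cultures share an origin. With the replicate block, 7 genes were called from Stage 1 to Stage 2, 6 from Stage 2 to Stage 3+DMSO (FBN1 added, adjusted p = 0.0262) and 8 from Stage 1 to Stage 3+DMSO (FBN1, 0.0145, and EFEMP1, 0.0281, added). It called 7, 8 and 7 genes with KPT against DMSO, Stage 1 and Stage 2. The share of all genes called with the block was not counted, so these numbers have no background beside them.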
